A study of Mus musculus with 6 samples.

Results

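The matrix metalloproteinases (MMPs), the ADAMTS proteases and the tissue inhibitors of metalloproteinases (TIMPs) were followed in mouse right atrium under volume overload. The members were the protein-coding genes whose symbol was Mmp or Adamts followed by a digit, or one of Timp1 to Timp4. This gave 45 of the 54093 genes listed, of which 21842 were protein-coding: 22 MMPs, 19 ADAMTS proteases and 4 TIMPs. RNA was sequenced from right atria (RA) of wild-type C57BL/6 pups at postnatal day 21 (P21), in 3 sham-operated samples and 3 volume overload (VO) samples. VO was produced at P7 by an aortocaval fistula, an opening between the abdominal aorta and the inferior vena cava that returns arterial blood to the right heart, and sham pups had surgery without the fistula. All 6 samples therefore shared strain, genotype and age, and differed in the fistula. Pups of either sex were operated on, and the sex behind each library is not given. The labels do not say that each library came from a separate pup, so the p-values measure only the spread between these samples, which may be technical.

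MMPs are zinc proteases that cut collagens, elastin, proteoglycans and growth factor carriers outside the cell, most of them made as inactive proenzymes. TIMPs bind the active site of these proteases in a fixed ratio and block it, and TIMP3 also blocks several ADAMTS and ADAM proteases. ADAMTS proteases are secreted enzymes with thrombospondin repeats that include the procollagen N-proteinases, the proteoglycan-cleaving aggrecanases and the fibrillin-binding members. In the heart, fibroblasts, endothelial cells and immune cells make much of this set, and cardiac remodelling is commonly studied through it.

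Levels are given as FPKM, fragments counted on a gene scaled to its length and to a library size. They can be compared between genes. The library size behind the values was not the fragment count. It was 15557402 in sham 1, with 16494342 fragments, and 18144117 in VO 1, with 16852482 fragments. On the deposited values, median-of-ratios factors, which scale libraries by their median gene, were already 1 in every library. Each library held 15963082 to 17237903 fragments, and 1 FPKM on a gene of 1 kb stood for 15.6 to 18.1 fragments. Genes with a mean of at least 1 FPKM over the 6 libraries were tested, which left 12627 genes, and differences were fitted by limma on log2(FPKM + 0.1). On this scale the change of a low gene is understated. A gene passed the test at a Benjamini-Hochberg adjusted p under 0.05, and 1 of the 12627 genes did (0.00792%). All 6 atrial cardiomyocyte markers on the list used here were detected. Their summed level was 12533 to 18646 FPKM in sham and 5823, 11797 and 8424 FPKM in VO 1 to 3. 2 VO libraries stood apart. In VO 1, 8 of 8 macrophage markers, 10 of 10 neutrophil markers and 5 of 5 proliferation markers had their highest level of the 6 libraries. The summed macrophage level was 929 FPKM in VO 1, against 301 and 365 FPKM in VO 2 and VO 3 and 262 to 360 FPKM in sham. In VO 3, 5 of 5 adipocyte markers had their highest level, and their sum was 392 FPKM against 3.50 to 7.72 FPKM in the other libraries. Ucp1, the thermogenic protein of brown fat, was at 254 FPKM in VO 3 and at 0 in the other 5. Log2 differences of tested named genes that turned sign or moved by over 1.5 times without VO 1 or without VO 3 are also given that way. Genes below the filter were not fitted with libraries left out.

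Of the 45 members, 40 had at least 1 fragment in some library, and 24 passed the filter on low values: 8 MMPs, 3 TIMPs and 13 ADAMTS proteases. The other 21, among them 14 of the 22 MMPs, were below it. The set was led by inhibitors and by the gelatinase Mmp2. Timp2 was in the 97.5th percentile of mean FPKM among the tested genes, Mmp2 in the 96.3rd and Timp3 in the 93.6th. Among MMPs, Mmp2 was followed by the membrane-anchored Mmp15 and Mmp14, and among ADAMTS proteases Adamts2 and Adamts10 were highest.

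**Figure D1:**
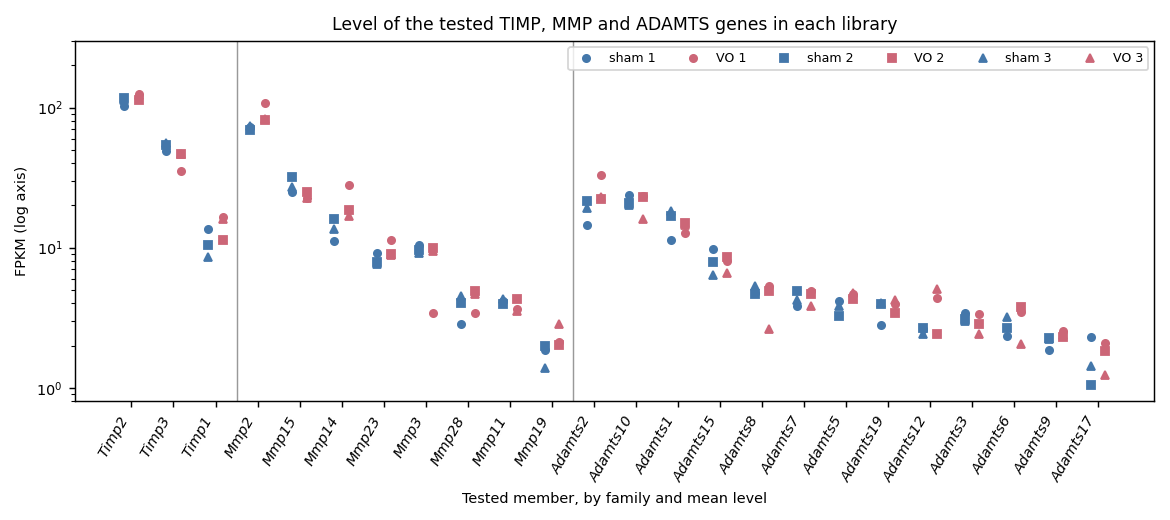
FPKM on a log axis of the 24 members that passed the filter on low values, 1 column per gene, grouped as TIMPs, MMPs and ADAMTS proteases. Sham libraries are blue and VO libraries red, with a circle, square and triangle for libraries 1, 2 and 3. Timp2, Mmp2 and Timp3 lie highest, and for most genes the colours overlap.

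No member passed the adjusted test between VO and sham, and the adjusted p-values of the 24 tested members ran from 0.409 to 0.938. 15 of the 24 had a higher fitted level in VO and 9 a lower one, beside 48.5% of all tested genes with a higher one. 3 members, Mmp14, Adamts2 and Mmp2, had an unadjusted p under 0.05, all with the higher level in VO. They were 12.5% of the tested members, beside 12.0% of all tested genes in either direction, 3.89% in that direction and 8.08% in the other. In 7 of the 24, the 3 sham libraries and the 3 VO libraries did not overlap (29.2%, against 21.2% of all tested genes). In 6 of these VO was higher (Mmp14, Mmp2, Mmp19, Adamts2, Adamts5 and Adamts9), which is 25.0% of the members against 8.25% of all tested genes. In Timp3 VO was lower, which is 4.17% against 12.9%. The median log2 difference, VO minus sham, was 0.12 over the 24 members and -0.01 over all tested genes. By family the median was 0.21 for MMPs, 0.12 for TIMPs and 0.11 for ADAMTS proteases. Without VO 1 the ADAMTS median was -0.01, with genes of at least 5 FPKM it was -0.054, and the TIMP median ran from 0.024 without VO 1 and VO 3 to 0.33 with quantile normalization. Without VO 1, none of the 24 had an unadjusted p under 0.05, when 7.42% of all tested genes did, and none did without sham 3, when 9.14% did. With VO 1 and VO 3 both left out it was also 0, when 4.13% of all tested genes had such a p, 1.43% higher and 2.70% lower in VO. Scaled to TPM, the length-scaled unit that sums to the same total in every library, 8 members had an unadjusted p under 0.05, all higher in VO, but that scaling moved the median of all tested genes to 0.13. Relative to that median, the members' median was 0.13. Of all tested genes 12.4% then had such a p, 8.59% higher and 3.85% lower. In limma's voom on the recovered fragment counts 4 members had one, all higher, against 12.8% of all tested genes, 4.32% higher and 8.47% lower. These counts describe the members and were not tested against those of the other genes.

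**Figure D2:**
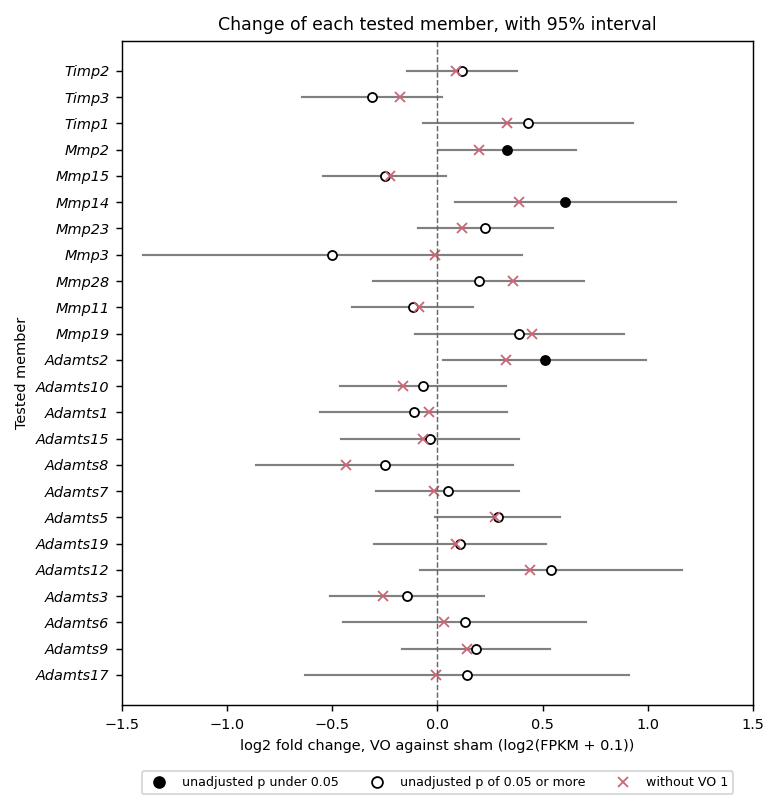
log2 difference in FPKM, VO minus sham, with its 95% confidence interval from limma for each of the 24 tested members. Filled points had an unadjusted p under 0.05 and crosses give the value without VO 1. The 3 filled points are Mmp14, Adamts2 and Mmp2, and their crosses lie nearer to 0.

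Mmp14 (ENSMUSG00000000957, GRCm38 chr14:54431612-54445364, plus strand) encodes MT1-MMP, a membrane-anchored collagenase that activates pro-MMP2 at the cell surface together with TIMP2. Its level was 11.2, 16.1 and 13.7 FPKM in sham 1 to 3 and 28.1, 18.6 and 16.8 FPKM in VO 1 to 3. Every VO library lay above every sham library, but VO 3 exceeded sham 2 by little and VO 1 was far above the rest. The means were 13.7 ± 2.48 and 21.2 ± 6.10 FPKM (SD, n = 3 each), a log2 difference of 0.61 with a 95% confidence interval of 0.08 to 1.13. limma gave an unadjusted p of 0.029 and an adjusted p of 0.409. Without VO 1 the log2 difference was 0.39.

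Mmp2 (ENSMUSG00000031740, chr8:92827291-92853420, plus strand) encodes gelatinase A, which degrades type IV collagen and denatured collagen. Its sham levels were 72.4, 68.9 and 74.1 FPKM, and its VO levels were 108.7, 82.0 and 82.9 FPKM. The groups did not overlap, the sham libraries lay close together, and VO 1 was again highest. The means were 71.8 ± 2.61 and 91.2 ± 15.2 FPKM (SD, n = 3 each), with a log2 difference of 0.33 (SE 0.14). Its unadjusted p was 0.047, its Benjamini-Hochberg adjusted p from limma was 0.414, and the log2 difference without VO 1 was 0.20. An RNA level of a proenzyme is not a measure of its activity. In whole atria, fewer cells of a type and less RNA per cell cannot be told apart, and this holds for each gene described here.

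The macrophage marker sum moved with both genes in VO 1, the library where Mmp14, Mmp2 and Adamts2 were each highest. The macrophage sum was 301 FPKM in VO 2, 365 FPKM in VO 3 and at most 360 FPKM in sham. In VO 2 and VO 3, Mmp14 was at 18.6 and 16.8 FPKM, against at most 16.1 FPKM in sham. Mmp2 was at 82.0 and 82.9 FPKM there, against at most 74.1 FPKM in sham. The atrial cardiomyocyte marker sum was lowest in VO 1, at 5823 FPKM, and was 11797 and 8424 FPKM in VO 2 and VO 3. It was 12533 to 18646 FPKM in sham. The part of either cell type in the Mmp14, Mmp2 and Adamts2 differences was not tested.

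Mmp15, a second membrane-anchored MMP, was at 25.0, 32.0 and 26.9 FPKM in sham and 22.5, 25.1 and 22.5 FPKM in VO. VO was lower on average but VO 2 lay within the sham range. Its log2 difference was -0.25, with a limma adjusted p of 0.432. Mmp23, whose protein has an unusual cysteine-rich and immunoglobulin-like tail, was at 9.23, 7.88 and 7.69 FPKM in sham and 11.3, 9.04 and 8.83 FPKM in VO. The groups overlapped, and the log2 difference of 0.23 had a limma adjusted p of 0.480 and was 0.12 without VO 1. Mmp19 was at 1.87, 1.97 and 1.39 FPKM in sham and 2.11, 2.01 and 2.84 FPKM in VO, which did not overlap although the nearest libraries were almost equal. Its log2 difference was 0.39 with an adjusted p of 0.455 from limma, and 0.24 without VO 3. Mmp28, or epilysin, was at 2.85, 4.01 and 4.49 FPKM in sham and 3.40, 4.91 and 4.68 FPKM in VO, with a log2 difference of 0.20, which was 0.36 without VO 1. The stromelysin-related Mmp11, named after its values were seen, shares 3367 bases with Chchd10 on the opposite strand, which was at 63.5 to 180 FPKM, and no strand setting is given in the sources used here. On those bases the fragments of the 2 genes cannot be told apart without strand, and the Mmp11 log2 difference of -0.12, which was -0.06 without VO 3, is uncertain. The same limit holds for Mmp19, which shares 789 bases with Tmem198b (2.77 to 4.40 FPKM), and for Mmp28, which shares 466 bases with 1700020L24Rik (1.04 to 5.43 FPKM), both on the opposite strand.

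Mmp3 (ENSMUSG00000043613, chr9:7445822-7455975, plus strand) encodes stromelysin-1, which cuts proteoglycans, laminin and several proenzymes. Its level was 10.5, 9.60 and 9.17 FPKM in sham and 3.43, 9.88 and 9.45 FPKM in VO. VO 1 was far below the other 5 libraries, which lay close together. The log2 difference of -0.50 had a limma adjusted p of 0.558, and without VO 1 it was -0.01. In the same library Gsn (gelsolin), the most abundant of 7 fibroblast markers, was also low, at 321 FPKM against 1042 to 1604 FPKM elsewhere. The other 6 markers summed to 433 FPKM in VO 1, inside the 352 to 484 FPKM of the other libraries, and 2 of them, Lum and Tcf21, were highest in VO 1. The sum of all 7 was 754 FPKM in VO 1 and 1445 to 2088 FPKM elsewhere.

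Mmp3 was the only tested member of the MMP cluster on chromosome 9. In that cluster 9 members lie within 427072 bases (GRCm38, chr9:7272514-7699585): Mmp13, Mmp12, Mmp1b, Mmp3, Mmp10, Mmp8, Mmp27, Mmp20 and Mmp7. 4 of the 9, Mmp1b, Mmp10, Mmp20 and Mmp7, were at 0 fragments in every library. With 3 fragments as the limit a count of 0 allows, Mmp10 could have been at up to 0.0960 to 0.112 FPKM in a library, for counting error only. Of the 13 MMPs elsewhere in the genome, 7 were tested and Mmp21 alone was at 0.

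The promoters of the cluster were compared with those of the other members by their motifs. Windows of 250 bases before a RefSeq start on GRCm38.p6 were found for 31 of the 45 members, and Mmp2, Mmp9 and 12 others had none. Some RefSeq starts lay inside the gene as listed, such as those of Adamts20 and Mmp11. So did the start of the Mmp12 window with AP-1 letters (chr9:7347124-7347373), where the gene was listed from 7344381. Some genes had more than 1 start, which gave 34 windows, 11 of them from the 9 cluster genes. The windows were searched on both strands for 3 motifs, where matches to different motifs cannot share a base. The first was the AP-1 site, the element bound by Fos and Jun proteins, spelled TGANTCA. The second was the core promoter element named the T-A-T-A box, spelled TATAAA. The third was the GC box, the element bound by Sp1-type factors, spelled GGGCGG. The AP-1 letters were in 7 of the 11 cluster windows, 1 for each of 7 genes, in none of the other 23, and in 6.75% of all 32851 windows of this length. The TATAAA letters were in 6 of the 11 cluster windows and in 2 of the other 23, those of Adamts1 and Mmp21, against 12.4% of all windows. The GC box letters were in none of the 11 and in 16 of the other 23, each from a different gene, against 32.7% of all windows. 7 members held none of the 3, the cluster genes Mmp8 and Mmp27 and, outside it, Adamts12, Adamts13, Adamts17, Mmp23 and Timp4. The 16 genes with a GC box had a median mean level of 4.02 FPKM, and 11 of the 16 were tested. The 7 genes with AP-1 letters had a median of 0 FPKM, with 1 tested. The 8 with TATAAA letters had a median of 0 FPKM, with 2 tested. A match describes letters only and does not show that a factor binds. The sequences that follow show these matches in the last 120 bases before the start, 5′ to 3′ on the plus strand, with every match of the 3 motifs on either strand in capitals. From the cluster are shown Mmp3, the tested member (chr9:7445702-7445821), Mmp13 (chr9:7272394-7272513), and 2 genes at 0, Mmp10 (chr9:7502222-7502341) and Mmp20 (chr9:7628111-7628230). From elsewhere are shown Mmp14 (chr14:54431478-54431597), Adamts2 (chr11:50601965-50602084) and Timp1 (chrX:20870046-20870165).
Mmp3: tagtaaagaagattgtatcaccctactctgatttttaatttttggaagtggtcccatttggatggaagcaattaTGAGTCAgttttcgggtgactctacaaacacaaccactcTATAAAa
Mmp13: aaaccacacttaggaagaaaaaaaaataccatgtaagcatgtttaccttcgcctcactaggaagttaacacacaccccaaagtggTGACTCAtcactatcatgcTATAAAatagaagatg
Mmp10: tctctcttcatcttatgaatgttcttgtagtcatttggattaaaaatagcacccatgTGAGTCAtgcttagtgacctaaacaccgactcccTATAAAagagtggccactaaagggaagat
Mmp20: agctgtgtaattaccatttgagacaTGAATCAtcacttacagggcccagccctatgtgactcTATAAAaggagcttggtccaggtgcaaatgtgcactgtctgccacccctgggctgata
Mmp14: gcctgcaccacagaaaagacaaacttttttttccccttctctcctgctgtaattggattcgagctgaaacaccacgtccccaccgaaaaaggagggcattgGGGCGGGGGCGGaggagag
Adamts2: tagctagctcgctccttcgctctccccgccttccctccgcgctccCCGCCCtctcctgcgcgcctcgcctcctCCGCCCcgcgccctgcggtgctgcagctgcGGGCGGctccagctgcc
Timp1: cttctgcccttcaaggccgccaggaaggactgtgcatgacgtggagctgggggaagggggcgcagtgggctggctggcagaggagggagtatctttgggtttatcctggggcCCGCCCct

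In the Mmp3, Mmp13, Mmp10 and Mmp20 sequences the AP-1 letters precede the TATA letters. Mmp3, with the same 2 motifs as Mmp10 and Mmp20, was at 3.43 to 10.5 FPKM where those were at 0. The letters were thus found in both an expressed and unexpressed cluster genes. All 4 cluster genes at 0 held both motifs. Mmp8 and Mmp27, which held neither, had 49 and 107 fragments in all. Mmp14 and Adamts2, which are among the 3 members with an unadjusted p under 0.05, hold only GC boxes in the stretch shown, as does Timp1, whose groups overlapped.

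Timp3 (ENSMUSG00000020044, chr10:86300372-86349506, plus strand) encodes the inhibitor that binds the extracellular matrix and has the broadest range of targets in its family. Its level was 48.8, 54.2 and 56.0 FPKM in sham and 35.5, 47.0 and 46.5 FPKM in VO. All VO libraries lay below all sham libraries, with VO 1 lowest. The means were 53.0 ± 3.72 and 43.0 ± 6.50 FPKM (SD, n = 3 each), a log2 difference of -0.31 (SE 0.14). The adjusted p from limma was 0.420, and without VO 1 the log2 difference was -0.18.

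Timp1, the inducible inhibitor of most secreted MMPs, was at 13.5, 10.5 and 8.58 FPKM in sham and 16.6, 11.3 and 16.0 FPKM in VO. VO 1 and VO 3 were above all sham libraries and VO 2 was within their range. The log2 difference was 0.43 (SE 0.21) with a limma adjusted p of 0.432, and without VO 1 and VO 3 it was 0.09. Timp2, the partner of MT1-MMP in pro-MMP2 activation, was the most abundant member. Its sham levels were 103, 117 and 114 FPKM and its VO levels 125, 113 and 124 FPKM. The groups overlapped, and the log2 difference was 0.12 with a limma adjusted p of 0.630.

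Timp4, an inhibitor with a narrow tissue range that includes heart and fat, was below the filter. Its level was 0.240, 0.207 and 0.417 FPKM in sham and 0.150, 0.250 and 2.47 FPKM in VO. VO 3 alone was high, with 239 of the 362 fragments counted over the 6 libraries, and it is the library with the adipocyte marker sum of 392 FPKM. With genes of at least 0.1 FPKM admitted, the log2 difference was 0.69 with a limma adjusted p of 0.757. The part of adipose tissue in this value was not tested. Timp1, Timp3 and Timp4 each lie inside a synapsin gene on the opposite strand, Syn1, Syn3 and Syn2. Syn2 was at 3.49 FPKM in VO 3 and at 0.431 to 1.18 FPKM elsewhere, Syn1 at 1.31 FPKM in VO 3 and at most 0.26 FPKM elsewhere, and Syn3 at no more than 0.125 FPKM. Without a known strand setting, fragments on any shared exon could belong to either gene.

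**Figure D3:**
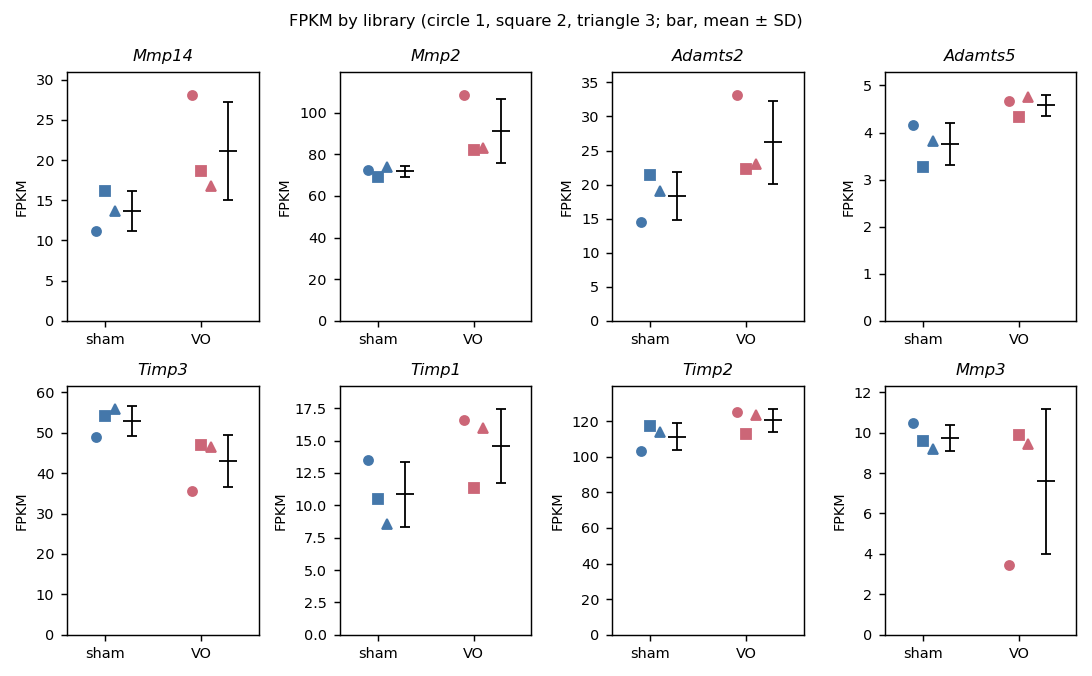
FPKM of 8 members in each library, with the group mean and SD as bars, for sham (blue) and VO (red). Mmp14, Mmp2, Adamts2 and Adamts5 lie higher in every VO library and Timp3 lower, Timp1 and Timp2 overlap, and Mmp3 is low in VO 1 alone.

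The family totals gave the balance of protease and inhibitor RNA. The summed level of the MMPs was 139, 147 and 145 FPKM in sham and 190, 158 and 155 FPKM in VO, which did not overlap. That of the TIMPs was 166, 182 and 179 FPKM in sham and 177, 172 and 188 FPKM in VO, and that of the ADAMTS proteases was 88.4 to 96.2 FPKM in sham and 89.8 to 113 FPKM in VO, and both overlapped. The ratio of the MMP sum to the TIMP sum was 0.841, 0.806 and 0.810 in sham and 1.07, 0.922 and 0.823 in VO. VO 1 and VO 2 exceeded all sham libraries and VO 3 fell between them. These sums are dominated by Mmp2, Timp2 and Timp3 and are given as a description with no test.

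Ratios of single pairs are given as a description. The ratio of Mmp14 to Timp3, its inhibitor, was 0.228, 0.297 and 0.244 in sham and 0.793, 0.396 and 0.361 in VO. The ratio of Mmp2 to Timp3 was 1.48, 1.27 and 1.32 in sham and 3.06, 1.74 and 1.78 in VO. VO 1 was highest in both, and since Mmp14 and Mmp2 were higher and Timp3 lower in every VO library, these ratios could not overlap between groups. Over Timp2, the ratios of Mmp14 (0.108 to 0.137 in sham, 0.136 to 0.225 in VO) and of Mmp2 (0.588 to 0.703 in sham, 0.671 to 0.870 in VO) overlapped.

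Adamts2 (ENSMUSG00000036545, chr11:50602084-50807573, plus strand) encodes the main procollagen N-proteinase, which removes the amino-terminal propeptide of fibrillar collagens. It was at 14.5, 21.4 and 19.1 FPKM in sham and 33.2, 22.3 and 23.0 FPKM in VO. The groups did not overlap, but VO 2 and VO 3 lay just above sham 2. The means were 18.3 ± 3.50 and 26.2 ± 6.09 FPKM (SD, n = 3 each), a log2 difference of 0.51 (SE 0.20). The unadjusted p was 0.042, the limma adjusted p was 0.411, and the log2 difference without VO 1 was 0.33.

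Among the proteoglycan-cleaving members, Adamts5, an aggrecanase and versicanase, was at 4.17, 3.27 and 3.82 FPKM in sham and 4.66, 4.33 and 4.76 FPKM in VO. Every VO library was above every sham library, by a small step, and VO 1 was not the highest. Its log2 difference was 0.29 (SE 0.13) with a limma adjusted p of 0.414. Adamts9, which also cuts versican, was at 1.85, 2.26 and 2.23 FPKM in sham and 2.56, 2.30 and 2.36 FPKM in VO, without overlap but with near-equal libraries. It shares 3164 bases with 9530026P05Rik, an antisense gene at 1.13 to 1.45 FPKM. Its log2 difference was 0.18, with a limma adjusted p of 0.579. Adamts1, which lies 53059 bases from Adamts5 on chromosome 16, was at 11.3, 16.9 and 18.2 FPKM in sham and 12.7, 15.0 and 14.6 FPKM in VO. The VO libraries lay inside the sham range, and its log2 difference was -0.11, or -0.04 without VO 1. Adamts15 and Adamts8 are neighbours 20109 bases apart on chromosome 9. Adamts15 was at 9.84, 7.86 and 6.42 FPKM in sham and 8.04, 8.62 and 6.63 FPKM in VO, with a log2 difference of -0.04, which was -0.07 without VO 1 and 0.07 without VO 3. Adamts8 was at 4.75, 4.64 and 5.28 FPKM in sham and 5.30, 4.92 and 2.61 FPKM in VO, with a log2 difference of -0.25. In the latter, VO 3 alone was low, and the difference was -0.43 without VO 1 and 0.063 without VO 3.

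Adamts10, which binds fibrillin microfibrils, was at 23.7, 20.7 and 20.2 FPKM in sham and 23.3, 22.9 and 16.0 FPKM in VO, and its groups overlapped. The log2 difference of -0.07 became -0.17 without VO 1 and 0.11 without VO 3. Adamts7, a protease of thrombospondin-5 (COMP), was at 3.82, 4.90 and 4.23 FPKM in sham and 4.87, 4.68 and 3.85 FPKM in VO. Its log2 difference of 0.05 was -0.02 without VO 1 and 0.15 without VO 3. Adamts7 shares 6045 bases with Tbc1d2b on the opposite strand, at 3.44 to 5.71 FPKM, so its value is uncertain in the same way as that of Mmp11. Adamts12, chosen here after its values were seen, was at 2.63, 2.69 and 2.42 FPKM in sham and 4.36, 2.43 and 5.11 FPKM in VO. VO 1 and VO 3 were high and VO 2 was as low as sham, so the log2 difference of 0.54 became 0.33 without VO 3 and -0.08 without VO 1 and VO 3. The other 4 tested members, Adamts3, Adamts6, Adamts17 and Adamts19, had overlapping groups and log2 differences of -0.15 to 0.14, which ran from -0.26 to 0.09 without VO 1 and from -0.03 to 0.39 without VO 3.

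Of the 21 members below the filter, whose mean levels were 0 to 0.791 FPKM, Mmp9 alone had groups that did not overlap. The share without overlap among all genes below the filter was not computed, so this count is only a description. Mmp9 (ENSMUSG00000017737, chr2:164940780-164955850, plus strand) encodes gelatinase B, which is stored in neutrophil granules and made by macrophages. It was at 0.0908, 0.131 and 0.121 FPKM in sham and 2.76, 0.139 and 0.550 FPKM in VO, from 5, 8 and 7 fragments against 177, 8 and 32. VO 1 and VO 3 stood well above sham, and VO 2, with as many fragments as sham 2, lay barely above it. With genes of at least 0.1 FPKM admitted, its log2 difference was 1.83 with a limma adjusted p of 0.509. Mmp8, the neutrophil collagenase, named after its values were seen, had 38 of its 49 fragments in VO 1 and 0 to 4 in each other library. The macrophage elastase Mmp12, also named after its values were seen, was at 0.411 FPKM in VO 1 and at 0.120 to 0.218 FPKM elsewhere. The summed level of the 10 neutrophil markers was 78.2 FPKM in VO 1, 5.59 and 2.29 FPKM in VO 2 and VO 3 and 1.24 to 12.6 FPKM in sham, and its part in the Mmp8 and Mmp9 values was not tested.

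**Figure D4:**
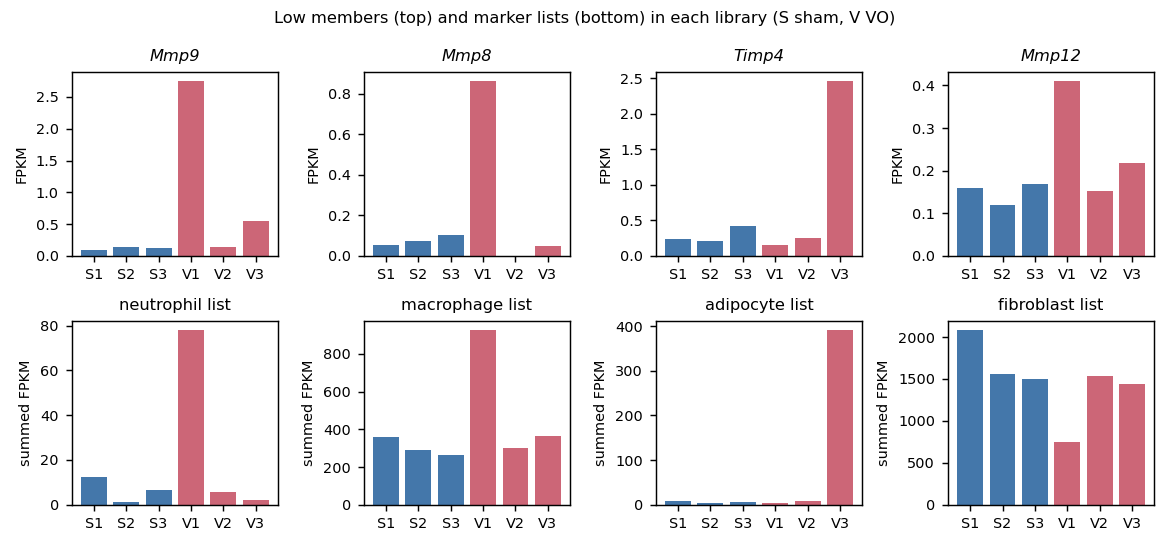
FPKM by library of Mmp9, Mmp8, Timp4 and Mmp12 (single genes) and of the summed neutrophil, macrophage, adipocyte and fibroblast marker lists, as bars from 0 with sham in blue and VO in red. Mmp9, Mmp8, Mmp12 and the neutrophil and macrophage sums peak in VO 1, and Timp4 and the adipocyte sum peak in VO 3.

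A list of 52 genes around the proteases held their substrates, other extracellular proteases and other inhibitors, and 38 of them were tested. None passed the adjusted test. 22 had a higher fitted level in VO and 16 a lower one, beside 48.5% of all tested genes with a higher one. In 7 of the 38 the groups did not overlap (18.4%, against 21.2% of all tested genes). VO was higher in 5 of these (13.2%, against 8.25%) and lower in 2 (5.26%, against 12.9%). 4 of the 38 had an unadjusted p under 0.05, all higher in VO. They were 10.5%, against 12.0% of all tested genes in either direction, 3.89% in that direction and 8.08% in the other. The 4 were Vcan, Fn1, Fbln2 and Adam9. Without VO 1 there were 2, Vcan and Adam9, when 7.42% of all tested genes had such a p. There were also 2 without sham 1 (6.77% of all tested genes) and without VO 3 (11.5%), 8 without VO 2 (15.8%) and none without VO 1 and VO 3 (4.13%).

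Vcan (ENSMUSG00000021614, chr13:89655312-89742509) encodes versican, the large proteoglycan that Adamts1, Adamts5 and Adamts9 products cut. It was at 1.92, 2.94 and 2.24 FPKM in sham and 4.08, 3.26 and 4.41 FPKM in VO. The groups did not overlap and VO 3 was highest, so the difference did not rest on VO 1 alone. Its log2 difference was 0.71 (SE 0.20) with a limma adjusted p of 0.383, and 0.68 without VO 1. Fn1, fibronectin, was at 14.8, 22.3 and 24.7 FPKM in sham and 52.4, 28.7 and 28.8 FPKM in VO. VO 1 was far above the rest, and the log2 difference of 0.80 was 0.51 without it. Fbln2, fibulin-2, an elastic fibre and basement membrane protein that several of these proteases cut, was at 21.2, 26.8 and 24.3 FPKM in sham and 32.7, 27.4 and 30.4 FPKM in VO. Its log2 difference was 0.33. Adam9, a membrane-anchored relative of the ADAMTS proteases, was at 18.6, 18.9 and 20.7 FPKM in sham and 24.0, 22.6 and 24.0 FPKM in VO. The 3 VO libraries lay close together above sham, with a log2 difference of 0.28, a limma adjusted p of 0.406, and 0.26 without VO 1.

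**Figure D5:**
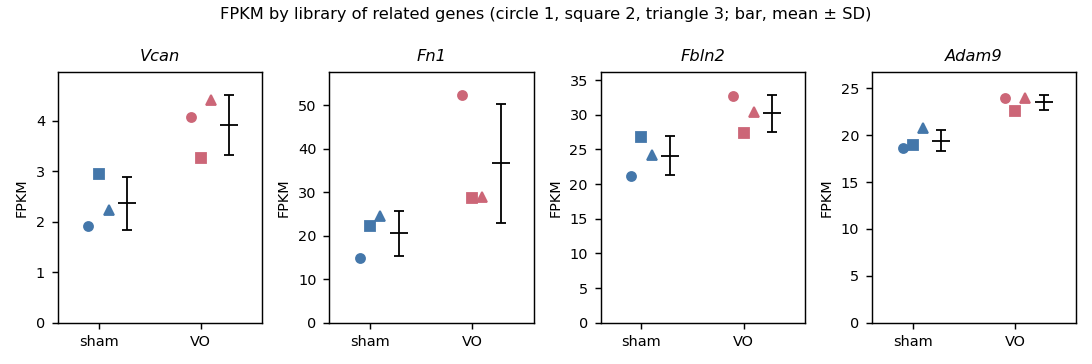
FPKM of Vcan, Fn1, Fbln2 and Adam9 in each library with group mean and SD, sham in blue and VO in red. The groups do not overlap in any of the 4, and VO 1 is far above the others for Fn1 only.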

How the data were processed

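Right atrial RNA was sequenced in 3 sham and 3 VO samples at P21. The authors aligned reads to the mouse genome GRCm38 (mm10) and deposited FPKM values per gene, with each gene's length. Per the labels, the processing tools named are HISAT2 2.0.5, StringTie 1.3.3b, featureCounts 1.5.0-p3, DESeq2 1.16.1 and GATK 3.7. The strand setting is not given in the sources used here. The deposited FPKM times length was a whole multiple of 1 step per library in 100% of values (tolerance 0.01 fragments), which gave the fragments per gene and a depth of 15963082 to 17237903. Intervals and floors from these cover counting error only. Groups came from the sample labels. The extraction note in them speaks of a rat, but the organism label and the gene identifiers are mouse. Genes with a mean of at least 1 FPKM were fitted in limma 3.58.1 (R 4.3.3) on log2(FPKM + 0.1), after scaling by median-of-ratios factors, which left the deposited values unchanged, with moderated variances following a trend and Benjamini-Hochberg adjustment over 12627 genes. The test script was checked on simulated counts with the same dispersion for all genes and no library standing apart. That check does not cover libraries such as VO 1 and VO 3. An exact permutation test of 3 against 3 samples cannot go below p = 0.1, so single values have no test of that kind.

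Values in every library were given for the 4 TIMPs, the 6 MMPs and 6 ADAMTS proteases with the highest mean FPKM, tested members with an unadjusted p under 0.05 or no overlap, members below the filter with at least 20 fragments and no overlap, and related genes with an unadjusted p under 0.05. The members and all gene lists were chosen with earlier results of these data known. Alternatives were other pseudocounts, filters and scalings, variance settings, voom, a replicate block and leaving out each library. Promoters came from RefSeq on GRCm38.p6.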

Additional observations from a re-analysis of the deposited data

How the results depend on the processing

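No member and no related gene passed the adjusted threshold under any alternative run. The count of members with an unadjusted p under 0.05, 3 in the report, was 1 without the variance trend (11.0% of all tested genes had such a p), 5 in voom with genes of at least 0.1 FPKM (10.4%), 5 without VO 2 (15.8%), 0 without VO 1 (7.42%) and without sham 3 (9.14%), and 8 in TPM (12.4%). The count of all genes passing the adjusted threshold, 1 in the report, was 2 with a pseudocount of 1, 3 with genes of at least 0.1 FPKM, 3 without the variance trend, and 0 with quantile normalization, with robust variances, without VO 1 and VO 3, and on leaving out each library in turn (0 to 0). The median log2 difference of the MMPs, 0.21, was 0.28 with genes of at least 0.1 FPKM, 0.35 in TPM, 0.27 in voom with that filter, 0.16 to 0.22 on leaving out libraries and 0.16 without VO 1 and VO 3. That of the TIMPs, 0.12, was 0.27 with genes of at least 0.1 FPKM or no filter, 0.25 in TPM, 0.33 with quantile normalization, 0.28 in voom with the lower filter, 0.024 to 0.16 on leaving out libraries, the lowest being without VO 1 and VO 3. That of the ADAMTS proteases, 0.11, was -0.054 with genes of at least 5 FPKM, and -0.01 without VO 1.

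Of 479 values of 25 named genes under alternatives, 16 changed sign, in 7 genes. Adamts10 was 0.069 in TPM, 0.026 with quantile normalization, and -0.17 to 0.11 on leaving out libraries, the highest without VO 3. Adamts1 was 0.026 in TPM and -0.32 to 0.018, the highest without sham 3. Adamts15 was 0.10 in TPM and -0.19 to 0.12, the highest without VO 1 and VO 3. Adamts8 was -0.43 to 0.063 (highest without VO 3), Adamts7 -0.035 to 0.15 (lowest without sham 1), Adamts12 -0.082 to 0.85 and Mmp3 -0.76 to 0.022 (both turned without VO 1 and VO 3). The cause was not tested. VO 1 and VO 3 were left out together, voom with the lower filter was run and TPM was set against its median after seeing the data.

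Same-numbered sham and VO libraries had correlations of their deviations of -0.11, 0.01 and -0.03, so the numbers were not taken to pair samples. With a replicate block 0 genes passed the adjusted threshold, and 932 of all genes (7.38%) and 0 members, instead of 1511 (12.0%) and 3, had an unadjusted p under 0.05. Members with few fragments, such as Mmp8 with 49 in all, limit what can be seen at this depth.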
